A study of Mus musculus with 2 samples.

Results

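A set of 4 genes encoding abundant proteins of saliva was followed across nuclei and free RNA of the mouse salivary gland: the mucin-like gene Mucl2 (ENSMUSG00000036925) and the secretoglobins Scgb1b27 (ENSMUSG00000066583), Scgb2b27 (ENSMUSG00000066584) and Scgb2b26 (ENSMUSG00000066586). They were chosen by symbol, and all 4 were present among the 26033 genes of the files. Nuclei had been extracted without selection of a cell type from whole salivary glands at an age of 20 days, and each genotype was represented by 1 library of 3' end counts. The control mouse was heterozygous for Csf2 (C56BL/6 Csf2+/-), the gene of the cytokine GM-CSF, and the null mouse lacked both copies (C56BL/6 Csf2-/-). The control thus already carried 1 disrupted allele, no wild-type gland was among the samples used here, and whether a library came from 1 animal or from pooled animals is not stated in the sources used here.

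Secretoglobins are small secreted proteins that pair through disulfide bonds. In mouse saliva an alpha subunit, encoded by genes named Scgb1b, joins a beta-gamma subunit, encoded by genes named Scgb2b, to form salivary androgen-binding protein, which has been studied as a scent cue. Scgb1b27 is an alpha subunit gene (older symbol Abpa27), while Scgb2b27 and Scgb2b26 are beta-gamma subunit genes (Abpbg27 and Abpbg26). Mucl2 (older symbol Spt1, for salivary protein 1) encodes an unrelated secreted protein. All are made in the secretory cells of the gland, so transcripts in the cytoplasm of acinar cells can be released when tissue is broken to obtain nuclei. A droplet without a nucleus then still yields such transcripts, and a droplet with a nucleus of another cell type yields them too.

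The upstream sequences show how the members are related. Scgb1b27 and Scgb2b27 are neighbours in the RefSeq annotation, on opposite strands and pointing away from each other, and Scgb2b26 lies in the same cluster. The 250 bases before each annotated start are given 5′ to 3′ on the strand of the gene (RefSeq, build GRCm38.p6). Capitals mark stretches of at least 12 bases that the upstream sequences of Scgb2b27 and Scgb2b26 hold in common, and in Mucl2 the TATATA motif.
Mucl2, chr15:103899313-103899562, minus strand: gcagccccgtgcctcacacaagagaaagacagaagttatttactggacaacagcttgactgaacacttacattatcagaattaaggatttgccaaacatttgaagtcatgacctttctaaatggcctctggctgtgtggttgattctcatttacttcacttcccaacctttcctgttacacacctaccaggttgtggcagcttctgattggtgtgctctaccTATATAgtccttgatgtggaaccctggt
Scgb1b27, chr7:34021231-34021480, plus strand: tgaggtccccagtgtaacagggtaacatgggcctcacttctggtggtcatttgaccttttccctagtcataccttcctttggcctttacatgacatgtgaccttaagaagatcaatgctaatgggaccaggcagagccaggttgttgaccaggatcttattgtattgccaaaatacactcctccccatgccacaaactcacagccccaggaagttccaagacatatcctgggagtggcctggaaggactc
Scgb2b27, chr7:34013943-34014192, minus strand: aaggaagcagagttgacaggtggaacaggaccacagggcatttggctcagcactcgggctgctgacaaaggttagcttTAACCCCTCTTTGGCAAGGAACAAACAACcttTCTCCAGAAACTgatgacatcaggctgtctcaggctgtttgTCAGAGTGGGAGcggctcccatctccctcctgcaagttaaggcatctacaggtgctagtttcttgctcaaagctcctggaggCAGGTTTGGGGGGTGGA
Scgb2b26, chr7:33944986-33945235, minus strand: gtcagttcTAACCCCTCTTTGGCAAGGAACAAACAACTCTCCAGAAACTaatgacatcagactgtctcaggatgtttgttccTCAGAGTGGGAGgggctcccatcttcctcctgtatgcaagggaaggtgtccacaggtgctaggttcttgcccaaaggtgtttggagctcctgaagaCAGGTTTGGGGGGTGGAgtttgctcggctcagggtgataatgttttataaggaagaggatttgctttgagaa
The beta-gamma pair aligned over 198 columns, with 160 identical bases, 17 mismatches and 21 gap positions, and their longest shared run had 29 bases. No other pair of members shared a run of more than 10 bases on either strand. The motif TATAA was present on the gene's strand 27 bases before the start of Scgb2b26, and 29 and 43 bases into the annotated transcripts of Scgb2b27 and Scgb1b27. On either strand it was found in 24.9% of 32851 promoter windows of 300 bases. The motif TATATA, 28 bases before the start of Mucl2, was found in 5.67% of them. CAGCTG and AGAACA were found on neither strand in the windows of the members. These matches describe letters only.

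The last 300 bases of the Scgb2b27 and Scgb2b26 transcripts, where 3' end reads fall, aligned with 235 identical bases and 35 mismatches (87.0% identity). Of their windows of 90 bases, 0 of 211 occurred exactly in a transcript of any other gene. With windows of 50 bases, 13 of 251 of Scgb2b27 occurred in other secretoglobin genes or a pseudogene and 0 of 251 of the other members did. How reads that match several paralogs were assigned is not given in the sources used here. The split between close paralogs is thus uncertain, and so is their sum if such reads were dropped.

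The libraries were of like depth, with 76002888 unique molecular identifiers (UMIs, each counting 1 captured RNA molecule) over 68460 barcodes in the control and 75630815 over 74339 in the null library. Csf2 itself gave 5 UMIs in the control against 0 in the null library. Barcodes under 1000 UMIs, taken as droplets with free RNA and no nucleus, numbered 49061 and 56671. After removal of clusters with a free-RNA profile, 8582 and 13870 nuclei remained, with median UMI numbers of 2812 and 1976. The libraries shared 1367 barcode sequences. Classes of nuclei were named from marker genes, and 16 classes with at least 50 nuclei in each library were used. Macrophage-like nuclei had 14 of 14 macrophage markers at least 2-fold above the other clusters, endothelial-like nuclei 9 of 10 and the larger fibroblast-like cluster 9 of 10. The main acinar-like class rested on 4 of 14 acinar markers in each of its clusters (Bhlha15, Lpo and Creb3l1 with Ano1 or Cldn10). Acinar-like cluster 10 was kept apart, and clusters 4, 6, 7, 11 and 12 are given by number. Of these, cluster 6 had 10 of 11 myoepithelial markers and cluster 12 was led by genes of cell division (Tpx2, Kif4, Hmmr).

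The 4 genes were among the most abundant transcripts of the gland. Over the whole library they made up 23.0% of all UMIs in the control against 28.3% in the null library. Mucl2 ranked 1st, Scgb1b27 2nd and Scgb2b27 3rd of all genes in both libraries. Scgb2b26 ranked 7th in the control and 5th in the null library. Mucl2 gave 9499817 and 10458179 UMIs, Scgb1b27 gave 3944107 and 5991622, Scgb2b27 gave 3032700 and 3650586, and Scgb2b26 gave 971174 and 1306467 in the control and null libraries. Every barcode of the null library held all 4 genes, and so did 68454 of 68460 control barcodes, the other 6 lacking only Scgb2b26. UMIs count 3' ends, so levels of genes are compared without regard to length.

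Free RNA held the highest level of each member. Mucl2 stood at 162024 CPM (UMIs scaled to a fixed pool total, here 16.2% of the free-RNA UMIs) in the control and 183682 CPM in the null free RNA. Scgb1b27, the alpha subunit, stood at 67374 CPM in the control and 105605 CPM in the null library. Of the beta-gamma subunits, Scgb2b27 stood at 50402 and 63466 CPM and Scgb2b26 at 16325 and 22903 CPM in the control and null free RNA. Together the 4 genes were 29.6% of free RNA in the control against 37.6% in the null library. The counts were so large that the exact Poisson 95% interval of Mucl2 in the control ran only from 161895 to 162154 CPM, which covers counting error only.

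Each nuclear class held the same 4 transcripts in the same order. In macrophage-like nuclei, which should not make saliva proteins, Mucl2 was at 63362 CPM (95% interval 62813 to 63914) in the control and 73376 CPM (72759 to 73996) in the null library. In main acinar-like nuclei, the class of the secretory cells, Mucl2 was at 64827 CPM (64677 to 64977) and 78813 CPM (78662 to 78963). The acinar-like level was thus slightly above the macrophage-like level in each library, with intervals that did not overlap. For Scgb1b27, macrophage-like nuclei held 27928 and 41866 CPM and main acinar-like nuclei 28262 and 45150 CPM. Scgb2b27 was further apart, at 21217 and 25756 CPM in macrophage-like against 24969 and 29504 CPM in main acinar-like nuclei. Scgb2b26 was at 6890 and 9078 CPM against 7135 and 9809 CPM. In the control, lymphoid-like and endothelial-like nuclei were the classes with the highest Mucl2, at 73188 and 69333 CPM, both above the main acinar-like class.

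**Figure D1:**
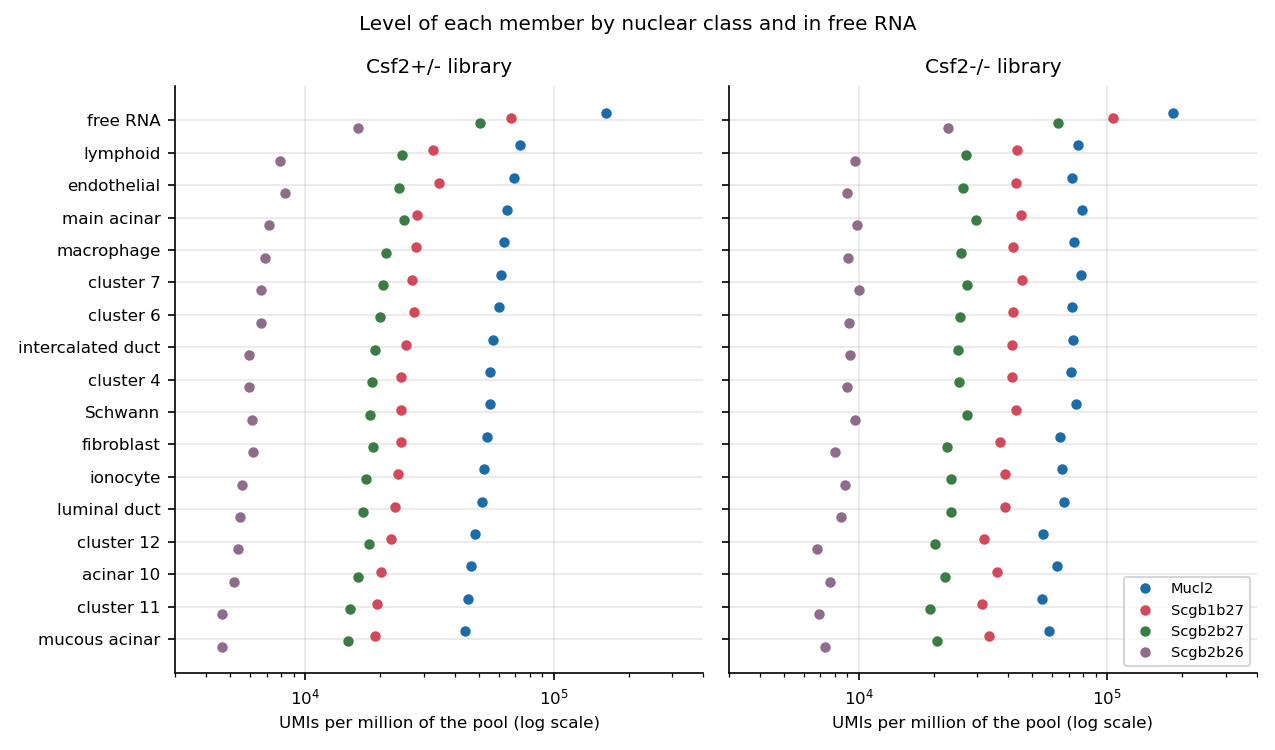
Level of Mucl2, Scgb1b27, Scgb2b27 and Scgb2b26 (CPM of the pool, log scale) in 16 classes of nuclei and in free RNA, 1 panel per library. Free RNA is highest for every member in both libraries, and Mucl2 is above Scgb1b27, Scgb2b27 and Scgb2b26, in that order, in every class.

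As a share of its own free-RNA level, Mucl2 in the 16 classes ran from 27.1% (mucous acinar-like) to 45.2% (lymphoid-like) in the control, and from 29.7% (cluster 11) to 42.9% (main acinar-like) in the null library. Within a class the 4 members were closer to 1 share in the null library than in some control classes. Macrophage-like nuclei of the null library held Mucl2 at 39.9%, Scgb1b27 at 39.6%, Scgb2b27 at 40.6% and Scgb2b26 at 39.6% of free RNA. In main acinar-like nuclei of the control the shares were 40.0% for Mucl2, 41.9% for Scgb1b27, 49.5% for Scgb2b27 and 43.7% for Scgb2b26. Control endothelial-like nuclei had a similar spread, from 42.8% for Mucl2 to 51.3% for Scgb1b27, and control cluster 12 ran from 29.7% for Mucl2 to 35.8% for Scgb2b27. Scgb2b27 stood above the other members in main acinar-like nuclei of the control, and it did so in the null library too, at 46.5% against 42.8% to 42.9%. Free RNA was above main acinar-like nuclei by 2.50-fold for Mucl2, 2.38-fold for Scgb1b27, 2.29-fold for Scgb2b26 and 2.02-fold for Scgb2b27 in the control. In the null library the folds were 2.33, 2.34, 2.33 and 2.15. All 4 members were thus at least 2-fold higher in free RNA in both libraries, where 16.9% of all 13401 genes with enough counts were in the control against 13.3% in the null library. The Scgb2b27 value in the control lay just past that fold (log2 1.01, 95% interval 1.01 to 1.02).

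Counted per barcode, the members differed less between classes, in relative terms, than their shares of UMIs did. The mean number of member UMIs per nucleus ran from 298 (cluster 7) to 396 (cluster 12) in the control and from 299.9 (acinar-like cluster 10) to 337 (lymphoid-like) in the null library. Main acinar-like nuclei held 362 and 324, macrophage-like nuclei 315 and 316, and a free-RNA barcode 224 and 270. Mucous acinar-like nuclei, with median UMI numbers of 3432 in the control against 2283 in the null library, had the lowest share of members in the control at 8.26%. In macrophage-like nuclei the genotypes were alike in the total member count. The share differed, at 11.9% in the control against 15.0% in the null library, since the control nuclei were deeper (median 2205 against 1771 UMIs). The like total held opposite differences, with Mucl2 at 167 and 154 and Scgb1b27 at 73.7 and 88.1 UMIs per nucleus. Other classes differed in either direction. Totals were lower in the null library in endothelial-like (382 and 326) and fibroblast-like nuclei (344 and 311), among others. They were slightly higher in cluster 7 (298 and 308) and lymphoid-like nuclei (330 and 337), among others. Fewer cells of a type and less RNA per cell cannot be told apart in free RNA.

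**Figure D2:**
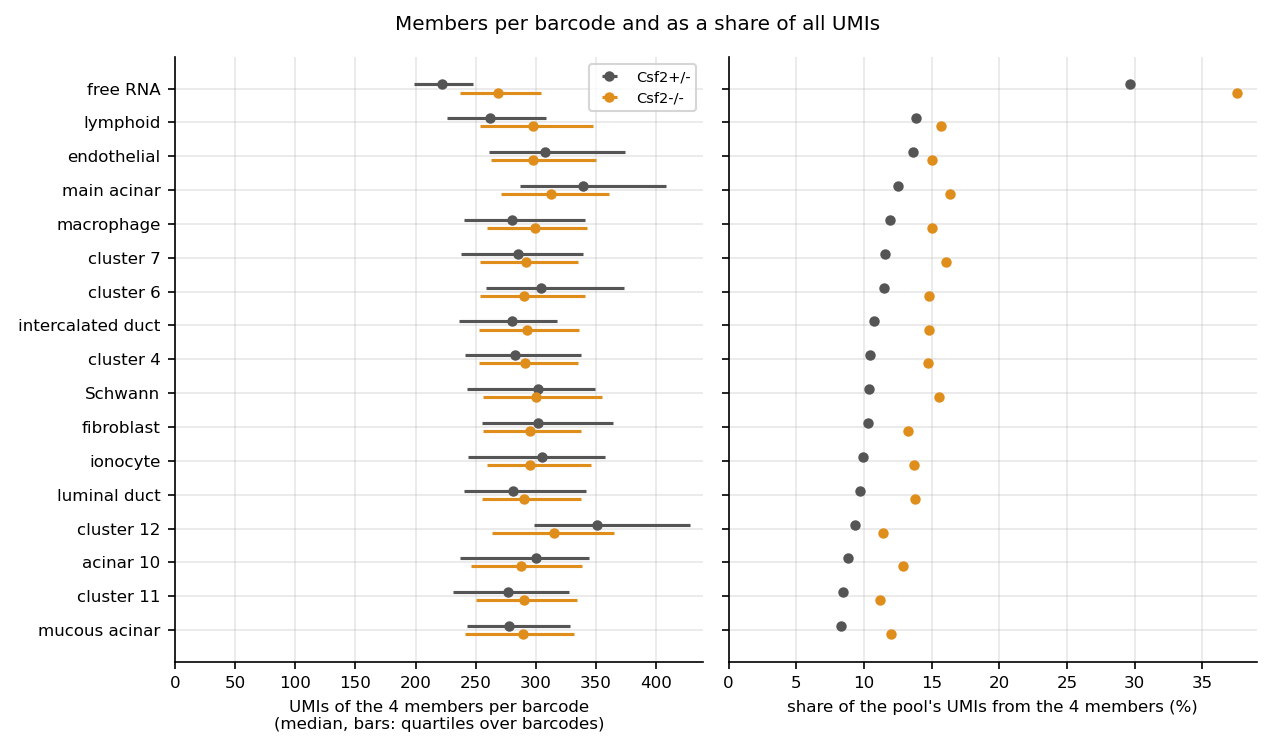
Left, UMIs of the 4 members per barcode (median, bars give the quartiles over barcodes, which are not replicates) and right, the members' share of the pool's UMIs in percent, by class and library. Medians lie between 262 and 351 UMIs in all 16 classes, while shares run from 8.26% to 16.3% in nuclei and reach 29.6% and 37.6% in free RNA.

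Thinned to 500 UMIs per nucleus, every nucleus of the 16 classes in both libraries still held Mucl2. The scarcest member, Scgb2b26, was found in 290 of 305 macrophage-like nuclei of the control (95.1%, exact binomial 95% interval 92.0 to 97.2%) and in 96.5% of main acinar-like nuclei (95.9 to 97.0%). In the null library the shares were 97.7% (95.6 to 99.0%) and 98.9% (98.7 to 99.2%). Over the 16 classes the share ran from 88.0% (cluster 11) to 96.8% (Schwann-like) in the control and from 95.2% (cluster 12) to 99.5% (ionocyte-like) in the null. Shares this near to 100% leave little room for classes to differ. Before thinning, median depths were 2738 UMIs in acinar-like and 2205 in macrophage-like nuclei of the control, and 1866 and 1771 in those of the null library. Without thinning, all nuclei of both classes held it. No nucleus of these classes was left out by the thinning.

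To see what the nuclei held beyond free RNA, the member UMIs of each class were set against an amount scaled from the free RNA of the same library. The scale was the number of UMIs of 31 other saliva product genes per macrophage-like, endothelial-like or fibroblast-like nucleus, 96.1 in the control against 105 in the null library. In the control, main acinar-like nuclei held 1.04 times the scaled amount of Mucl2 (95% interval 1.03 to 1.04), 1.09 times that of Scgb1b27, 1.13 times that of Scgb2b26 (1.12 to 1.14) and 1.28 times that of Scgb2b27 (1.28 to 1.29). The null values were 1.01 for Mucl2 and 1.09 for Scgb2b27, while Scgb1b27 and Scgb2b26 were 0.251 and 0.0887 UMIs per nucleus above the scaled amount, of 89.7 and 19.5 counted. Scgb2b27 was the member furthest above 1 in the main acinar-like class in both libraries.

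Other classes bound how such values can be read. Across the other 15 classes the control values ran from 0.876 to 1.12 for Mucl2, 0.923 to 1.29 for Scgb1b27, 0.942 to 1.36 for Scgb2b27 and 0.909 to 1.28 for Scgb2b26. The highest were in endothelial-like nuclei for Scgb1b27 and Scgb2b26 and in the dividing cluster 12 for Mucl2 and Scgb2b27. In the null library the ranges were narrower, from 0.922 to 1.11 over all members. The main acinar-like values thus lay inside the spread of the other classes, though for Scgb2b27 only because of cluster 12. With cluster 12 set aside, the next class for Scgb2b27 was endothelial-like at 1.19 (control) and lymphoid-like at 1.08 (null). Of these, only the lymphoid-like interval (1.05 to 1.12) reached the main acinar-like value. Cluster 12 itself held 1.57 times the scaled amount of the other saliva products in the control, against 1.33 in main acinar-like nuclei. Its null value was 1.28, against 1.19. These are class means, and 1 control endothelial-like barcode gave 5.23% of the member UMIs of its class (mean 382, median 307.5 member UMIs per nucleus). By the median, Scgb2b27 was highest in main acinar-like nuclei in both libraries, at 68 UMIs per nucleus in the control and 56 in the null, with cluster 12 next at 67 and 55. Macrophage-like nuclei had medians of 48 and 51. In all, the surplus was 31.1 UMIs per main acinar-like nucleus in the control against 6.20 in the null library, of 362 and 324 counted.

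**Figure D3:**
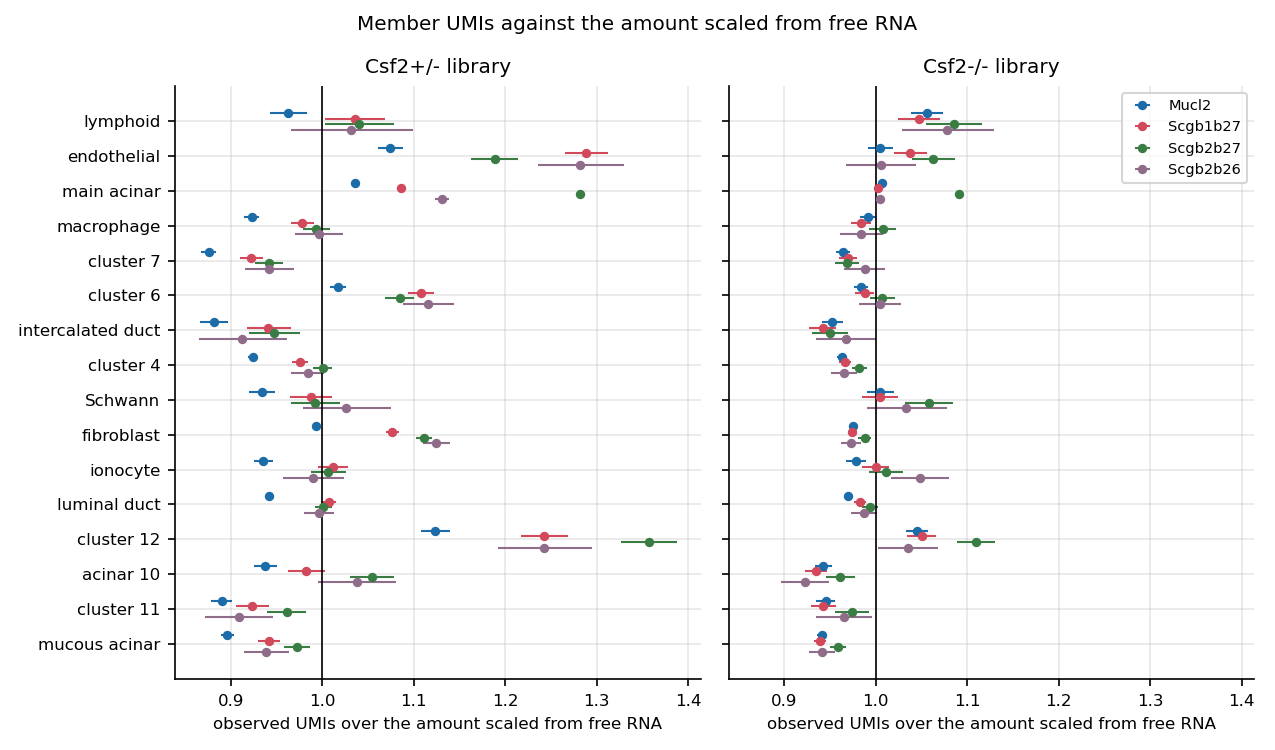
Member UMIs observed in each class divided by the amount scaled from free RNA (bars, exact Poisson 95% intervals, counting error only), 1 panel per library, with a line at 1. Scgb2b27 in main acinar-like nuclei reaches 1.28 in the control against 1.09 in the null library, while the endothelial-like class and cluster 12 also lie above 1 in the control.

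Ratios between members were compared next, with the limit that some of them differed with depth in free RNA, as given further on. Scgb2b27 per Mucl2 was 0.385 in main acinar-like nuclei of the control, the highest of the 16 classes, against 0.330 to 0.376 in the other 15 and 0.311 in free RNA. In the null library it was 0.374, again the highest, against 0.345 to 0.367 in the other classes and 0.346 in free RNA. The runner-up in both libraries was cluster 12, at 0.376 and 0.367. As a share of the Mucl2 and Scgb2b27 UMIs together, Scgb2b27 was 27.8% (95% interval 27.7 to 27.9%) in main acinar-like nuclei and 25.1% (24.8 to 25.4%) in macrophage-like nuclei of the control, and 27.2% (27.2 to 27.3%) against an interval of 25.7 to 26.3% in the null library. The intervals of the acinar-like and macrophage-like classes did not overlap in either library. That of cluster 12 overlapped the interval of the main acinar-like class in both (26.8 to 27.8% in the control, 26.4 to 27.3% in the null library). In the null library endothelial-like (26.3 to 27.3%) and Schwann-like nuclei (26.1 to 27.2%) overlapped the main acinar-like class too.

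The alpha subunit was at the other end of the order. Scgb1b27 made up 46.8% (46.7 to 46.9%) of the 3 secretoglobins in main acinar-like nuclei of the control, the lowest of all classes, against 48.6% to 51.8% in the other 15 and 50.2% in free RNA. Its null share was 53.5% (53.4 to 53.5%), again the lowest, against 53.9% to 54.9% and 55.0% in free RNA. Among the beta-gamma subunits, the share of Scgb2b26 was also lowest in main acinar-like nuclei, at 22.2% in the control and with an interval of 24.8 to 25.1% in the null library. The interval of cluster 12 overlapped this in both libraries (22.0 to 23.7% in the control), as did that of endothelial-like nuclei in the null. For the alpha share, Schwann-like (53.1 to 54.6%) and lymphoid-like nuclei overlapped the main acinar-like class in the null library, and no class did in the control. Both beta-gamma genes together matched the alpha gene closely in control free RNA, with 1.01 Scgb1b27 UMIs per beta-gamma UMI. The control classes ran from 0.880 in main acinar-like to 1.07 in endothelial-like nuclei. Null free RNA held 1.22, and the null classes 1.15 to 1.22.

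Within free RNA the level of the alpha subunit depended on depth. In the control Scgb1b27 was 7.53% of UMIs in barcodes under 600 UMIs and 6.21% in those of at least 900 UMIs. The null values were 11.6% and 9.61%. The shallowest bin was thus 1.21-fold above the deepest in both libraries, whereas Mucl2 differed by 1.06-fold in the control and 1.02-fold in the null library. Scgb2b27 differed by 1.08-fold and 1.10-fold and Scgb2b26 by 1.08-fold in both. From barcode to barcode, the share of Scgb1b27 among the 3 secretoglobins varied little more than counting gives. Its SD was 5.27 percentage points against 5.04 from counting alone in the control and 4.49 against 4.30 in the null library. The members' share of all UMIs varied more than counting gives, with an SD of 2.49 against 1.68 in the control and 2.91 against 1.84 in the null.

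For the genotypes, each log2 ratio sets the null against the control library, and there is no replicate check. In free RNA Scgb1b27 was higher in the null library by 0.65 on the log2 scale (1.57-fold, 105605 against 67374 CPM). Scgb2b26 was higher by 0.49 (1.40-fold), Scgb2b27 by 0.33 (1.26-fold) and Mucl2 by 0.18 (1.13-fold). None of the 4 reached 2-fold higher, as 0.928% of 14118 genes did, and none was 2-fold lower, as 4.51% were. The median gene of free RNA was at -0.31, so all 4 members lay above it. When CPM was taken over genes other than the members and saliva products, the ratio of Scgb1b27 was 0.95 and that of Mucl2 0.49.

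The order of the members was the same in every depth bin of free RNA. Over the 5 bins the log2 ratio of Scgb1b27 ran from 0.62 to 0.64, that of Scgb2b26 from 0.47 to 0.49, that of Scgb2b27 from 0.30 to 0.34 and that of Mucl2 from 0.14 to 0.19. The libraries thus differed by a similar amount at matched depth.

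In nuclei the alpha subunit was again highest, but these ratios may not be separate from those of free RNA. Scgb1b27 had the highest ratio in all 16 classes, with a median of 0.69 and a range from 0.31 (endothelial-like) to 0.83 (Schwann-like). Scgb2b26 had a median of 0.57 (0.11 to 0.66), Scgb2b27 of 0.37 (0.14 to 0.58) and Mucl2 of 0.31 (0.06 to 0.44). Every value was above 0. These are ratios of CPM, and null nuclei had fewer UMIs in total. Counted per nucleus, Mucl2 was instead lower in the null library in every class (main acinar-like means 188 control, 157 null). Scgb2b27 was lower in all classes but Schwann-like (main acinar-like 72.2 and 58.6). Scgb1b27 was higher in all but endothelial-like nuclei (main acinar-like 81.8 and 89.7). Across the 15 classes other than main acinar-like, Scgb1b27 was 0.923 to 1.29 times its amount scaled from free RNA in the control. The null range was 0.934 to 1.05. Macrophage-like, endothelial-like and fibroblast-like nuclei are among these 15 classes and set the scale. How far free RNA makes up the class ratios was not tested, so they are not read as 16 separate observations. In main acinar-like nuclei the ratios were 0.68 for Scgb1b27 (95% interval 0.67 to 0.68), 0.46 for Scgb2b26 (0.45 to 0.47), 0.28 for Mucl2 (0.28 to 0.29) and 0.24 for Scgb2b27 (0.23 to 0.25). In macrophage-like nuclei they were 0.58, 0.40, 0.21 and 0.28, but with nuclei of at least 2000 UMIs that of Mucl2 was 0.036 and with classes set by markers per nucleus 0.46. Again 0 of 4 members reached 2-fold, where 1.18% of 11740 genes were at least 2-fold higher and 1.1% at least 2-fold lower in main acinar-like nuclei of the null library.

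With the scaled free RNA taken off, the sign of the difference in acinar-like nuclei turned, to a log2 ratio of -1.79 for the members together. It compares remainders of 31.1 and 6.20 UMIs per nucleus, which lay inside the spread of the other classes. For Scgb2b26 the null remainder was not above 0 within counting error (observed over scaled 0.999 to 1.01), so no size of difference is read from it. Scgb2b27 was the only member whose ratio in main acinar-like nuclei (0.24) was below that of Mucl2 (0.28). The same held in cluster 12 (0.17 against 0.20), there with overlapping counting intervals.

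**Figure D4:**
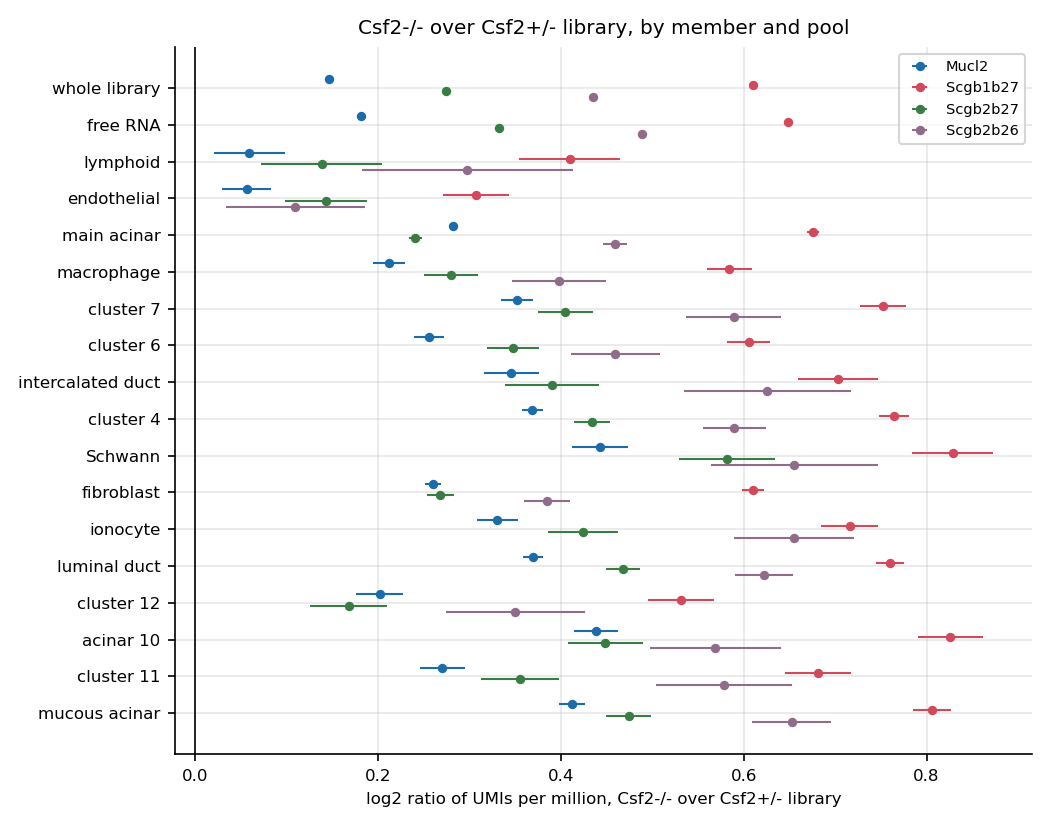
Log2 ratio of CPM, null over control library, for each member in 16 classes of nuclei, in free RNA and over the whole library (bars, exact 95% counting intervals). Every point is above 0 and Scgb1b27 is the furthest right in each row, at 0.65 in free RNA.

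Ratios between members also differed between the libraries. In free RNA there were 0.416 Scgb1b27 UMIs per Mucl2 UMI in the control against 0.575 in the null library, a log2 difference of 0.47. In main acinar-like nuclei the values were 0.436 and 0.573, a difference of 0.39. Scgb2b27 per Mucl2 went from 0.311 to 0.346 in free RNA (log2 0.15) but from 0.385 to 0.374 in main acinar-like nuclei (log2 -0.04, 95% interval -0.05 to -0.03). The change of the Scgb2b27 to Mucl2 ratio therefore had opposite signs in free RNA and main acinar-like nuclei. It was also downward in cluster 12, from 0.376 to 0.367, and upward in every other class. Scgb2b26 per Scgb2b27, the ratio of the paralogs with like upstream sequences, was 0.324 and 0.361 in free RNA (log2 0.16) and 0.286 and 0.332 in main acinar-like nuclei (log2 0.22).

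Among other saliva products in free RNA, 15 of 23 genes with at least 50 UMIs and UMIs in both libraries were higher and 8 lower in the null library, 5 and 3 of them past 2-fold, with a median of 0.29. Smr3a, with 0 UMIs in the null library, is not in that count and adds 1 to the genes past 2-fold lower. Over all genes 0.928% were 2-fold higher and 4.51% 2-fold lower, with a median of -0.31. The highest ratios were those of Dcpp3 (2.30, from 3444 to 16931 CPM) and Dcpp1 (2.17), of the demilune cell and parotid proteins. The lowest were those of Smr3a, with 497 UMIs in the control against 0 in the null free RNA (at least 182-fold lower, against a floor of 3 counts over the pool), and Mup4 (-2.56). The abundant products Prol1, Smgc, Pip and Car6 (a secreted carbonic anhydrase) had ratios of -0.05, 0.10, 0.29 and 0.29. Scgb1b27 was thus above each of these 4 and below Dcpp3. In main acinar-like nuclei of the control Prol1 stood at 63.8%, Pip at 62.1% and Car6 at 57.8% of their free-RNA level. They lay above Scgb2b27 at 49.5%, while Smgc at 32.6% and Dcpp3 at 32.5% lay below Mucl2 at 40.0%. Unlike the members, Prol1, Pip and Car6 are on the list of acinar markers and were not left out of the clustering.

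Genes with the most similar pattern were sought over 34 pools, the 16 classes and free RNA of each library. With the members themselves left out, Car6 had the highest Pearson correlation of log2(CPM + 1) with Mucl2 (0.970), Scgb2b27 (0.989) and Scgb2b26 (0.964), followed for Mucl2 by the mitochondrial transcripts mt-Atp6 (0.967), mt-Rnr1, mt-Nd2 and mt-Rnr2. For Scgb2b27 the next were Pip (0.954), mt-Atp6, Tpt1 and mt-Nd2, and for Scgb2b26 Tpt1 (0.963), Rplp1, mt-Atp6 and mt-Co1. Scgb1b27 differed, since its nearest genes outside the set were Rpl32 (0.970), Tpt1 (0.966), Rps27l (0.965), Rplp1 (0.961) and Rpl23 (0.959). Rpl32, Rplp1 and Rpl23 encode ribosomal proteins. Among the members, Scgb1b27 and Scgb2b26 correlated at 0.989, Mucl2 and Scgb2b27 at 0.989, and Mucl2 and Scgb1b27 least, at 0.934. The pools share libraries and the step from nuclei to free RNA, so these values are descriptions.

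The rest of the family was scarce. Of 34 secretoglobin genes in the files, 19 had at least 10 UMIs over both libraries and 10 had 0. The 3 members held 99.97% of all secretoglobin UMIs in the control against 99.99% in the null library, and all others together gave 2067 UMIs (0.0260%) and 1628 UMIs (0.0149%). The most abundant of them were Scgb2b24, with 435 and 364 UMIs, and Scgb1b3, with 277 and 143 UMIs. Mucl1, the other mucin-like gene, gave 915 UMIs in the control against 570 in the null library.

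The scarce secretoglobins varied in direction. Over the whole library 10 of 16 were lower in the null library and 6 higher, with a median log2 ratio of -0.33, where the median over all genes was -0.16. Several of these counts are small. The counting interval lay below 0 for 8 and above 0 for 4. Scgb2b20 (63 against 15 UMIs, log2 -2.06), Scgb2b12 (206 against 77, -1.41) and Scgb1b20 (22 against 8, -1.45) were the lowest, and Scgb1b30 (138 against 203, 0.56), Scgb2b3 (59 against 104, 0.82), Scgb1b2 (22 against 44, 1.01) and Scgb3a1 (3 against 12 UMIs) the highest with an interval above 0. The others were Scgb2b24 at -0.25, Scgb1b3 at -0.95, Scgb2b7 at -0.54, Scgb1b7 at -1.10, Scgb1b24 at -0.22, Scgb1c1 at 0.10, Scgb2b2 at 0.34, Scgb2b21 at -1.12 and Scgb2b19 at -0.41. Scgb2b12 and Scgb2b19 share transcript windows with Scgb2b27, so a few misassigned reads could form part of such small counts, which was not tested.

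**Figure D5:**
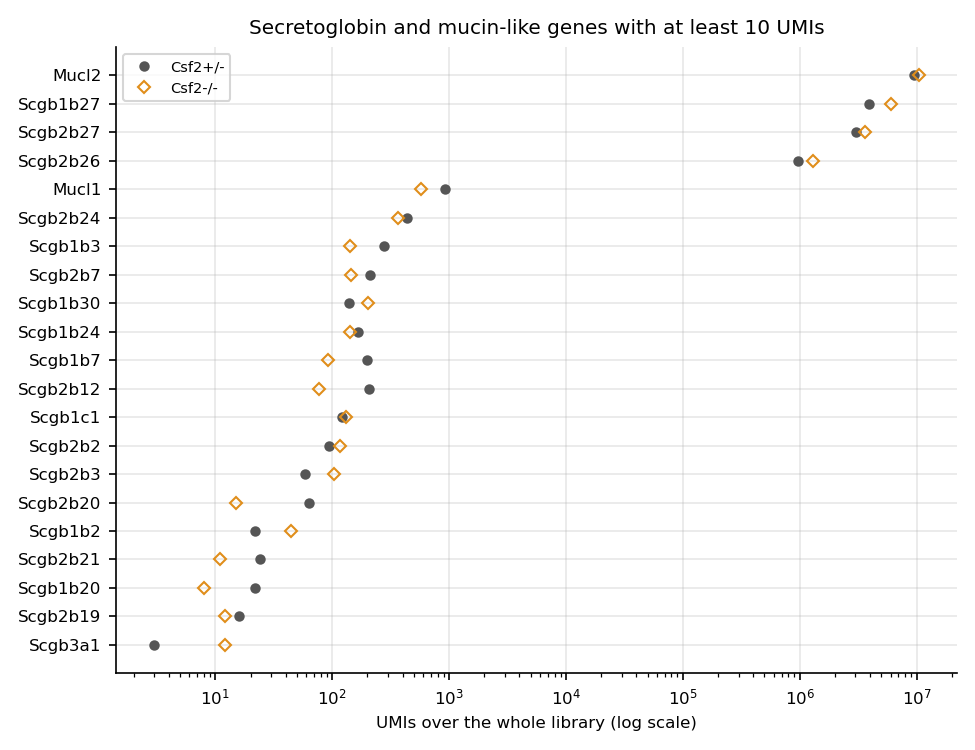
UMIs over the whole library (log scale) for each secretoglobin or mucin-like gene with at least 10 UMIs over both libraries (filled, Csf2+/- library, open, Csf2-/- library). The 4 members lie between 971174 and 10458179 UMIs and every other gene lies below 1000.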

How the data were processed

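The authors deposited UMI counts of each gene in each barcode, made with Cell Ranger 7.0.0 on GRCm39, per the submitters' processing notes. The labels name the 10x Chromium 3' kit. Whether intronic reads were counted is not given in the sources used here. Members, lists and rules were chosen with earlier results of these data known. Barcodes were kept from 1000 UMIs and 300 genes upward if mitochondrial UMIs were under 5%, and clustered with the members left out (Scanpy 1.11.5, 2000 variable genes, 30 components, 20 neighbours, Leiden resolution 1.0). Clusters whose share of saliva product UMIs was at least 0.75 of that in barcodes under 1000 UMIs were set aside as free RNA (10805 control and 3793 null barcodes). The rest were clustered again with genes scaled within each library, a step chosen after acinar nuclei had split by library, and a name needed 3 or more markers raised 2-fold or more. Scrublet marked 344 of 8582 control and 6 of 13870 null nuclei (0.0433%) and so had failed on the latter. No doublets were removed, in place of the planned removal, which became an alternative. UMIs were summed per class and library and given as CPM with exact Poisson intervals. Shares have Clopper-Pearson and ratios exact conditional binomial 95% intervals. These intervals hold counting error alone. There was no test and no p-value, as each genotype had 1 library. Called genes had at least 50 UMIs over both pools. Genes named were the members, the 5 most correlated with each (at least 200 UMIs), every Scgb or Mucl gene with at least 10 UMIs, and the saliva products with the 2 highest, 2 lowest and 5 most abundant values. The ratio and interval steps were tested on simulated data.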

Additional observations from a re-analysis of the deposited data

How the results depend on the processing

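No paired analysis was possible because each genotype had 1 library. Of the alternatives computed, none of which compared counts per nucleus, none changed the sign of a ratio except subtraction of free RNA in main acinar-like nuclei. It gave -1.79 for the members together, -2.15 for Mucl2, -4.14 for Scgb1b27, -1.17 for Scgb2b27 and -4.21 for Scgb2b26. These are ratios of remainders near 0 that give no size (the null Scgb2b26 remainder was not above 0 within counting error). Subtraction gave no ratio in macrophage-like, fibroblast-like or luminal duct-like nuclei, where remainders fell below 0. For the members together, macrophage-like and luminal duct-like remainders were below 0 in both libraries. The fibroblast-like remainder was 13.1 UMIs per nucleus (control) and -7.39 (null). Whether these classes keep their sign under subtraction is thus not shown. For the members together in main acinar-like nuclei (log2 null over control 0.38) the alternatives gave 0.39 at resolution 2.0, 0.36 at 500 UMIs, 0.28 at 2000 UMIs, 0.40 with members in the clustering, 0.38 with the marker rule (which put most nuclei in the acinar class), 0.49 with CPM over other genes, and 0.35 and 0.28 in the larger and smaller acinar cluster alone. With Scrublet calls removed, as first planned, it was 0.38. In macrophage-like nuclei (0.33) they ran from 0.14 at 2000 UMIs to 0.60 with the marker rule. In free RNA (0.34) they gave 0.33 under 700 UMIs, 0.33 in free-RNA clusters and 0.65 with CPM over other genes. Over the whole library (0.30) that CPM gave 0.48. Scgb1b27 over Mucl2 (0.47) was 0.48 under 700 UMIs and 0.46 in free-RNA clusters. Free RNA over acinar-like nuclei (1.24 control, 1.20 null) was 1.25 at resolution 2.0 in the control, 1.30 and 1.24 under 700 UMIs, and 1.25 and 1.31 at 2000 UMIs. The share of control macrophage-like nuclei with Scgb2b26 was 100% at 1000 UMIs and without thinning. Genes at least 2-fold higher in null free RNA numbered 131, but 79 under 700 UMIs and 43 with 200 UMIs required, and those lower 637, with 351 at 200 UMIs. Leaving out shared barcode sequences, the larger or smaller acinar cluster, and the alternatives for gene counts and for ratios of members were chosen after seeing the data. For these shifts the cause was not tested. Depth limits the share of nuclei with a member, which is near 100%.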

Other observations

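Single barcodes held much of some pools. In the control, 1 fibroblast-like barcode of 33778 UMIs held 14343 UMIs of the 4 members (42.5% of its UMIs), which was 3.80% of the member UMIs of that class. In lymphoid-like nuclei of the control, 1 barcode gave 12.8% of the member UMIs of the class. In main acinar-like nuclei the highest barcodes gave 0.267% in the control against 0.257% in the null library. Barcodes of the free-RNA clusters, with median UMI numbers of 1086 and 1071, held Scgb1b27 at 90.2% of its level in barcodes under 1000 UMIs in both libraries, while Mucl2 was at 96.1% and 96.5%. Within main acinar-like nuclei the members' share of a barcode's UMIs ran from 9.14% at the 5th percentile to 21.0% at the 95th in the control, against 11.9% to 22.6% in the null library.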
